A study of Ovis aries with 20 samples.

Results

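RNA sequencing counts of sheep trachea were examined for 8 genes of epithelial chloride secretion, taken by name from the 24478 genes of the count tables. They are CFTR, ANO1, SLC26A9, SLC26A4, SLC12A2, SLC4A4, KCNQ1 and CLCN2. All 8 were found and all passed the filter on low counts, which 20097 genes passed. Cystic fibrosis (CF) animals, which lack CFTR function, and healthy animals (WT) were sampled at days 65, 80, 100, 120 and 147, with birth at day 147. There were 2 samples in each of the 10 groups and 20 in all. The labels do not name the CFTR mutation, and describe the source as frozen tissue of the tracheal epithelium. The series asks about early deficits in a CF sheep model, so CF was set against WT, and late ages against early ones.

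Chloride secretion is a relay across the epithelial cell. Cotransporters of the basolateral membrane load the cell with chloride or bicarbonate, potassium channels keep the cell interior negative, and channels or exchangers of the apical membrane let the anions out, with sodium and water following. The airways of the fetus are filled with liquid made in this way. CFTR is the apical channel opened by cyclic AMP, and ANO1 the one opened by calcium. SLC26A9 is an apical chloride transporter with channel-like activity, and SLC26A4 (pendrin) exchanges chloride for bicarbonate. SLC12A2 (NKCC1) brings in sodium, potassium and chloride, SLC4A4 (NBCe1) brings in sodium with bicarbonate, KCNQ1 is a potassium channel that works with KCNE subunits, and CLCN2 is a chloride channel found on different sides of different epithelia.

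Library totals ran from 42372433 to 87651829 counts. Levels are given as CPM, depth-scaled counts on library sizes adjusted by TMM. All 20 genes of the epithelium list were in the tables, and their summed level ran from 1666 to 7644 CPM in CF and from 2306 to 10177 CPM in WT, lowest in CF day 80 replicate 1. Genes of other tissues stood over 10-fold above the partner library in 4 libraries that held thyroid, liver, skeletal muscle or thymus markers, and 2 further libraries did so for secretory and for smooth muscle markers. The sum of 13 thyroid genes was 111395 CPM in WT day 80 replicate 2, against 215 CPM in the other WT day 80 library. The sum of 12 liver genes was 18520 CPM in CF day 65 replicate 2, against 65.8 CPM in its partner, and that of 14 skeletal muscle genes was 32533 CPM in CF day 80 replicate 1, against 15.7 CPM. WT day 65 replicate 2 held muscle and thymus genes at 784 and 491 CPM. The 2 WT day 100 samples share 1 identifier, as do the 2 CF day 147 samples. WT day 65 replicate 2 shares one with CF day 100 replicate 2, although they differ in genotype and age, which leaves that label in doubt. In WT at days 80 and 120 and in CF at days 65 and 80, the identifiers of the 2 replicates differ only in a final 1 or 2. What a shared stem stands for is not stated. Whether replicates are separate animals is not stated for each, so p-values reflect only how far these samples vary, and that may be technical.

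By the positions in the tables (genome build not given in the sources used here), CFTR lies on the minus strand of chromosome 4 from 50644000 to 50864925. SLC26A4 lies on the same chromosome from 48670494 to 48732084. ANO1 (46438353 to 46544132) and KCNQ1 (48083211 to 48280820) are both on chromosome 21. SLC26A9 is on chromosome 12 (2935470 to 2963781), SLC12A2 on 5 (23258466 to 23352403), SLC4A4 on 6 (86007488 to 86366103) and CLCN2 on 1 (200883594 to 200898785). The counts cover the exons of each gene as a whole.

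CFTR RNA was found in all 20 libraries, at 186 to 2984 counts. Both CF libraries lay below both WT libraries at each of the 3 younger ages, and the genotypes overlapped at the 2 oldest. At day 65 CFTR stood at 16.5 and 11.7 CPM in CF, against 37.8 and 21.8 CPM in WT. At day 80 it stood at 4.30 and 8.36 CPM in CF, against 14.7 and 10.2 CPM in WT. At day 100 it stood at 19.9 and 17.4 CPM in CF, against 25.4 and 31.0 CPM in WT. Of all tested genes, 23.7% had both CF libraries below both WT libraries at day 65, 10.8% at day 80 and 30.0% at day 100. Many other genes thus shared this order at each single age, and how many had it at all 3 ages was not counted. At day 120 CFTR had 14.5 and 30.8 CPM in CF, against 35.1 and 16.5 CPM in WT, and at day 147 it had 37.1 and 26.0 CPM in CF, against 27.6 and 18.8 CPM in WT. The CF mean fell short of the WT mean at 4 ages, with CF over WT ratios of 0.474, 0.509, 0.662 and 0.879 from day 65 to day 120, and was above it at day 147, with a ratio of 1.36.

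Marker sums of other cells stood apart between the genotypes at day 100 too. There the 20 epithelial genes summed to 5174 and 5448 CPM in CF, against 10177 and 9351 CPM in WT, and the 11 secretory and gland genes to 4240 and 6115 CPM in CF, against 18576 and 24531 CPM in WT. The 12 fibroblast genes went the other way, with 38340 and 36796 CPM in CF, against 6767 and 4747 CPM in WT. These sums accompany every difference at day 100 given here for CFTR and the other genes, and their part in it was not tested. The 11 genes of ionocytes overlapped at day 100, with sums of 271 and 207 CPM in CF, against 256 and 251 CPM in WT. At day 65 the epithelial sums overlapped, at 5295 and 3966 CPM in CF, against 4432 and 3203 CPM in WT. They also overlapped at day 80, at 1666 and 4649 CPM in CF, against 6123 and 2306 CPM in WT.

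Ordered by mean level, CF at day 147 came first for CFTR with 31.5 ± 7.80 CPM, and CF at day 80 last with 6.33 ± 2.87 CPM (SD, n = 2 each). Of the 9 neighbouring pairs in that order, 2 did not overlap. CF at day 100, with 18.7 ± 1.76 CPM, stood clear of CF at day 65, with 14.1 ± 3.40 CPM, and WT at day 80, with 12.4 ± 3.17 CPM, stood clear of CF at day 80 (SD, n = 2 each). The ranges of the 7 other neighbouring pairs overlapped. Day 80 was the lowest age for CFTR in both genotypes. CF day 80 replicate 1, the library lowest in CFTR, was also the one lowest in epithelial markers and highest in skeletal muscle markers. In bulk tissue, fewer cells that transcribe a gene and less RNA per cell cannot be told apart.

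**Figure D1:**
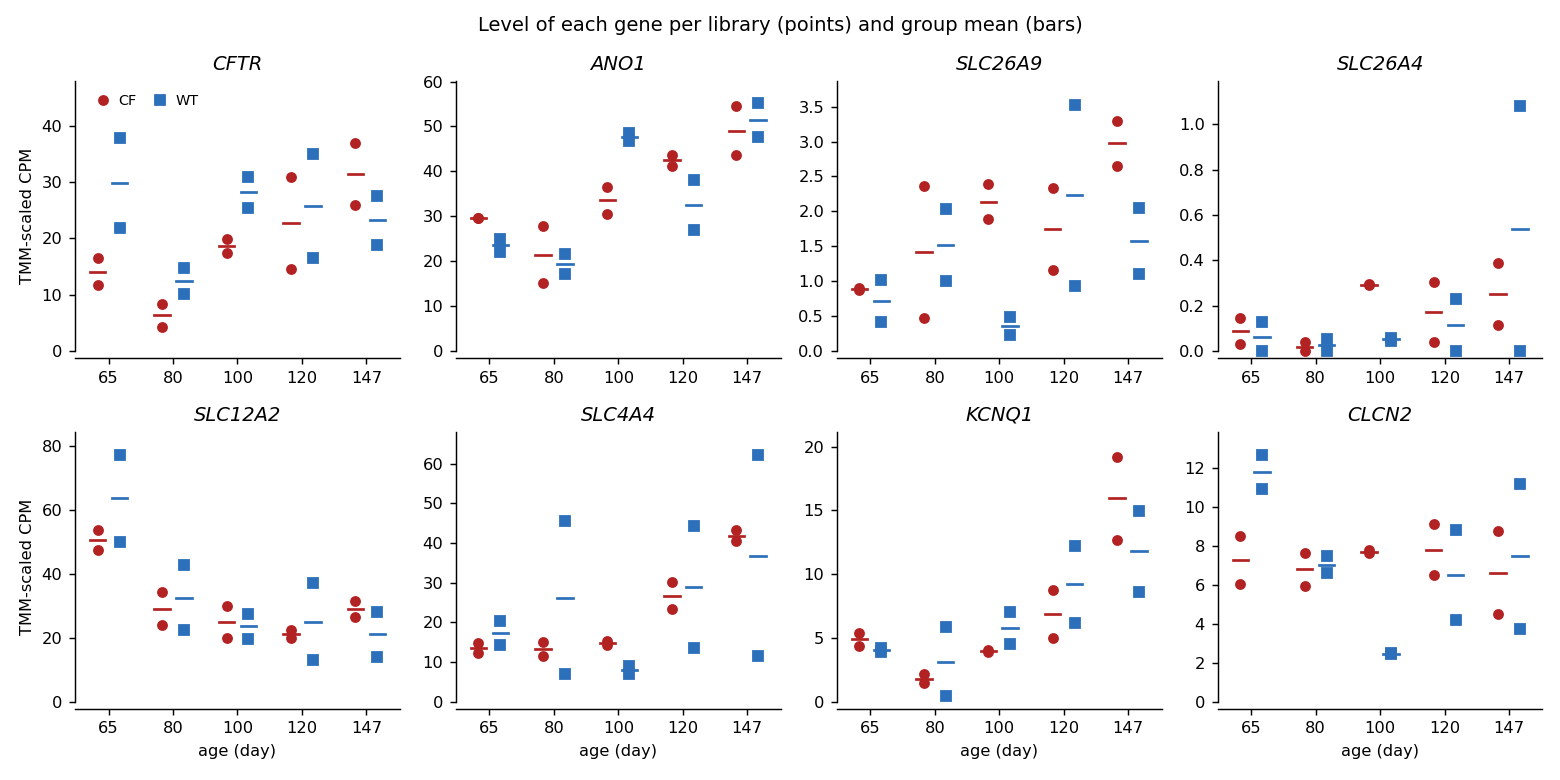
Level of each of the 8 genes in TMM-scaled CPM against age in days, with 1 point per library (CF circles on the left, WT squares on the right) and a bar at the mean of each group of 2; each panel has its own axis from 0. CFTR points of CF lie below those of WT at days 65, 80 and 100 and overlap them later, ANO1 and KCNQ1 have their highest group means at day 147 in both genotypes, with a dip at day 80, and SLC12A2 has its highest at day 65.

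ANO1, the calcium-activated channel, had the steadiest levels of the 4 apical genes, between 15.0 and 55.2 CPM in all libraries. At day 65 the CF libraries held 29.5 and 29.7 CPM, against 24.9 and 22.1 CPM in WT, and at day 80 they held 15.0 and 27.7 CPM, against 21.6 and 17.1 CPM in WT. At day 100 they were 36.5 and 30.6 CPM in CF, against 48.5 and 46.7 CPM in WT. At day 120 they were 41.3 and 43.7 CPM in CF, against 38.2 and 26.9 CPM in WT, and at day 147 they were 43.5 and 54.6 CPM in CF, against 55.2 and 47.6 CPM in WT. CF was thus above WT without overlap at days 65 and 120, below it at day 100, and overlapped it at days 80 and 147. The day 100 gap lies beside the lower epithelial and secretory sums of CF at that age. Both CF libraries lay above both WT libraries in 23.8% of all tested genes at day 65 and in 8.91% at day 120. They lay below both WT libraries in 30.0% at day 100.

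SLC26A9 was scarce, with 12 to 231 counts per library. Its largest gap between the genotypes was at day 100, with 1.89 and 2.39 CPM in CF, against 0.222 and 0.479 CPM in WT. These levels come from 124 and 161 counts in CF and from 12 and 42 counts in WT. The ratio of the means was 6.10, and no overlap was left between the genotypes, as for 40.5% of all tested genes that stood higher in CF at that age. At day 147 SLC26A9 had 2.65 and 3.30 CPM in CF, against 2.05 and 1.11 CPM in WT, again without overlap, as in 15.6% of all tested genes. The genotypes overlapped at the other 3 ages, between 0.468 and 2.36 CPM in CF and between 0.421 and 3.52 CPM in WT.

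SLC26A4 was close to the limit of detection. It had no count in 5 libraries, for which a floor of 3 counts allows between 0.0540 and 0.0693 CPM and which covers counting error only. These were CF day 80 replicate 1 and, in WT, day 65 replicate 2, day 80 replicate 1, day 120 replicate 2 and day 147 replicate 2. The highest level in CF was 0.387 CPM (22 counts, day 147 replicate 1), and the highest in WT was 1.08 CPM (58 counts, day 147 replicate 1). At day 100 it had 0.289 and 0.296 CPM in CF (19 and 20 counts), against 0.0554 and 0.0456 CPM in WT (3 and 4 counts). Its exons share 100 bases with a gene on the opposite strand, LOC105611148, and the counting is not stated to use strand, so reads of the 2 genes may be mixed.

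On the basolateral side, SLC12A2 overlapped between CF and WT at all 5 ages. At day 65 it had 53.7 and 47.5 CPM in CF, against 77.4 and 50.0 CPM in WT, and at day 80 it had 34.4 and 23.9 CPM in CF, against 22.3 and 42.9 CPM in WT. At day 100 it had 19.9 and 30.1 CPM in CF, against 19.7 and 27.4 CPM in WT. At day 120 it had 20.1 and 22.3 CPM in CF, against 37.1 and 13.1 CPM in WT, and at day 147 it had 26.5 and 31.5 CPM in CF, against 28.2 and 14.0 CPM in WT. The 4 libraries of day 65 were the 4 highest of the series, and the lowest were the second replicates of WT at days 120 and 147.

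SLC4A4, the bicarbonate cotransporter, differed most between the WT replicates of days 80, 120 and 147. At day 65 it had 14.9 and 12.4 CPM in CF, against 20.5 and 14.3 CPM in WT, and at day 80 it had 14.9 and 11.6 CPM in CF, against 6.92 and 45.5 CPM in WT. At day 100 it had 14.3 and 15.2 CPM in CF, against 7.06 and 8.90 CPM in WT. At day 120 it had 23.3 and 30.1 CPM in CF, against 44.3 and 13.4 CPM in WT, and at day 147 it had 43.3 and 40.5 CPM in CF, against 62.1 and 11.5 CPM in WT. Day 100 was the one age without overlap, CF being higher, as in 40.5% of all tested genes. The 45.5 CPM belong to the library with thyroid markers, which held 6.57 times the SLC4A4 and 14.0 times the KCNQ1 of the other WT day 80 library.

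KCNQ1 had its highest levels at day 147 in both genotypes, with 19.2 and 12.7 CPM in CF, against 15.0 and 8.60 CPM in WT. At day 65 it had 5.38 and 4.38 CPM in CF, against 4.21 and 3.87 CPM in WT, and at day 80 it had 1.48 and 2.12 CPM in CF, against 0.419 and 5.85 CPM in WT. At day 100 it had 3.91 and 4.04 CPM in CF, against 4.54 and 7.06 CPM in WT, and at day 120 it had 4.98 and 8.77 CPM in CF, against 12.2 and 6.16 CPM in WT. CF was above WT without overlap at day 65, as in 23.8% of all tested genes, and below it at day 100, as in 30.0%, and the genotypes overlapped at the other 3 ages.

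At day 65 CLCN2 had 6.06 and 8.51 CPM in CF, against 10.9 and 12.7 CPM in WT. At day 100 the order was the other way, with 7.65 and 7.78 CPM in CF, against 2.48 and 2.44 CPM in WT, a ratio of the means of 3.14. The 2 WT libraries at day 100, which share an identifier, were the lowest of the series for CLCN2, and also the lowest of day 100 in fibroblast markers. At that age 40.5% of all tested genes stood higher in CF without overlap, and at day 65 23.7% stood lower. At the other 3 ages the genotypes overlapped, between 4.50 and 9.14 CPM in CF and between 3.76 and 11.2 CPM in WT. CLCN2 shares 80 exon bases with FAM131A on the opposite strand.

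Averaged over the ages, no gene of the 8 passed the test of CF against WT, in which 0.766% of all tested genes passed (154 of 20097). The log2 fold change of CFTR was -0.48 ± 0.21 (SE), with a 95% interval from -0.94 to -0.02, an unadjusted p of 0.0424 and an adjusted p of 0.421 (quasi-likelihood test of edgeR, Benjamini-Hochberg adjusted). For ANO1 it was 0.06 ± 0.12, with an interval from -0.21 to 0.32. SLC26A9 had the largest difference in the other direction, 0.67 ± 0.37 (adjusted p = 0.534, edgeR), with an interval from -0.12 to 1.46. It was at 0.17 with the 4 libraries of other tissue left out, where SLC26A4 was at 0.84 and KCNQ1 at 0.43, and between 0.34 and 0.92 with 1 library left out. SLC12A2 was at -0.04 ± 0.22, SLC4A4 at -0.08 ± 0.35, KCNQ1 at -0.21 ± 0.35, CLCN2 at 0.20 ± 0.23 and SLC26A4 at 0.38 ± 0.97 (log2 fold change ± SE). None of the 8 passed this test in any of the 28 further fits either. A p that misses the threshold does not show that the levels are alike.

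At single ages 0 of 8 passed as well. The percent of all tested genes that passed was 0.00995%, 0%, 1.46%, 0% and 0.0945% at days 65, 80, 100, 120 and 147 (edgeR), while 682, 1924, 2479, 279 and 1592 genes had an unadjusted p under 0.05. At day 65 CFTR had a log2 fold change of -1.08 ± 0.48 (SE; unadjusted p = 0.0422, adjusted p = 1.0). At day 100 SLC26A9 had 2.59 ± 0.86 (unadjusted p = 0.0105, adjusted p = 0.198) and CLCN2 had 1.65 ± 0.52 (unadjusted p = 0.00725, adjusted p = 0.166), all by edgeR. DESeq2 called both at day 100, with adjusted p of 0.0355 for SLC26A9 and 0.0368 for CLCN2, and no other fit did. With samples of one identifier summed within their group (WT at day 100, CF at day 147), leaving 1 sample there that is assumed to vary like the other groups, the log2 fold changes were 2.36 and 1.53 and the adjusted p 0.882 and 0.829 (edgeR).

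**Figure D2:**
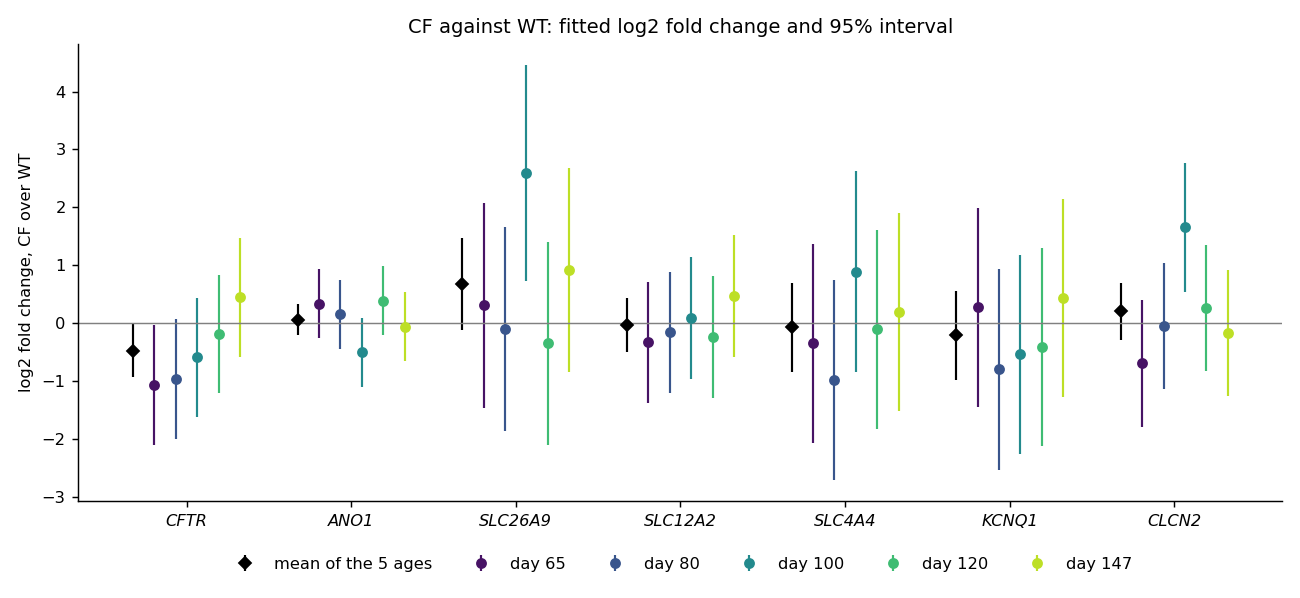
Fitted log2 fold change of CF over WT (y axis) with its 95% interval for 7 genes, for the average of the ages (black diamonds) and at each age (circles, day 65 to day 147 from left to right); SLC26A4, whose intervals span over 4 log2 units, is left out. The CFTR values run from -1.08 at day 65 to 0.44 at day 147, and the intervals of SLC26A9 and CLCN2 lie above 0 at day 100.

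The second comparison was between ages. Late samples (days 120 and 147) were set against early ones (days 65 and 80) over both genotypes, where 24.2% of all tested genes passed, 11.5% higher and 12.7% lower in late samples. Of the 8 genes 4 passed, CFTR, ANO1 and KCNQ1 being higher and SLC12A2 lower in late samples. The median log2 fold change was 0.93 over the 8 genes and -0.02 over all tested genes. CFTR averaged 25.8 ± 8.47 CPM in late and 15.7 ± 10.4 CPM in early samples (SD, n = 8 each), so that its log2 fold change was 0.92 ± 0.24 (SE; adjusted p = 0.0137, edgeR). This pooled rise did not hold for each early age of WT. There the day 65 mean of CFTR, 29.8 CPM, exceeded both late means, 25.8 and 23.2 CPM, and only the day 80 mean, 12.4 CPM, was lower. In CF both early means, 14.1 and 6.33 CPM, were below both late means, 22.7 and 31.5 CPM. The test of a larger change in CF, given below, did not pass for CFTR. ANO1 averaged 43.9 ± 9.14 CPM in late and 23.5 ± 5.51 CPM in early samples, a log2 fold change of 0.90 ± 0.14 (adjusted p = 0.000545, edgeR). KCNQ1 averaged 10.9 ± 4.75 CPM in late and 3.46 ± 1.92 CPM in early samples, a log2 fold change of 1.68 ± 0.41 (adjusted p = 0.00967, edgeR). SLC12A2 averaged 24.1 ± 8.37 CPM in late and 44.0 ± 17.8 CPM in early samples, a log2 fold change of -0.81 ± 0.24 (adjusted p = 0.0291, edgeR).

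The other 4 genes did not pass. SLC4A4 had a log2 fold change of 0.96 ± 0.40 (adjusted p = 0.102), SLC26A9 of 0.93 ± 0.41 (0.122), SLC26A4 of 2.36 ± 1.09 (0.141) and CLCN2 of -0.18 ± 0.25 (0.674), by edgeR with late over early. ANO1 passed in all 28 further fits. CFTR passed without any single library but not with the 4 libraries of other tissue left out, where its log2 fold change was 0.62 (adjusted p = 0.197), nor with the epithelium score as a covariate, where it was 0.73 (adjusted p = 0.177). KCNQ1 missed the threshold with that covariate (1.86, adjusted p = 0.0629) and reached 2.41 without WT day 80 replicate 2, the thyroid library. SLC12A2 missed it in 11 of the 20 fits with 1 library left out, with adjusted p up to 0.0751 (edgeR). It also missed it with samples of a shared identifier summed (-0.78, adjusted p = 0.0807), without the 4 libraries (-0.69, adjusted p = 0.174) and with the epithelium score (-0.42, adjusted p = 0.421), by edgeR. Those left out singly libraries were both of CF at days 65, 120 and 147, CF day 80 replicate 1, WT day 65 replicate 1 and the second replicates of WT at days 80, 120 and 147. SLC4A4 passed without WT day 80 replicate 2 (1.44, adjusted p = 0.0117), without WT day 147 replicate 2 and in DESeq2 (0.99, adjusted p = 0.0461), and SLC26A9 passed without CF day 80 replicate 1 (1.35, adjusted p = 0.0338), by edgeR where DESeq2 is not named.

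**Figure D3:**
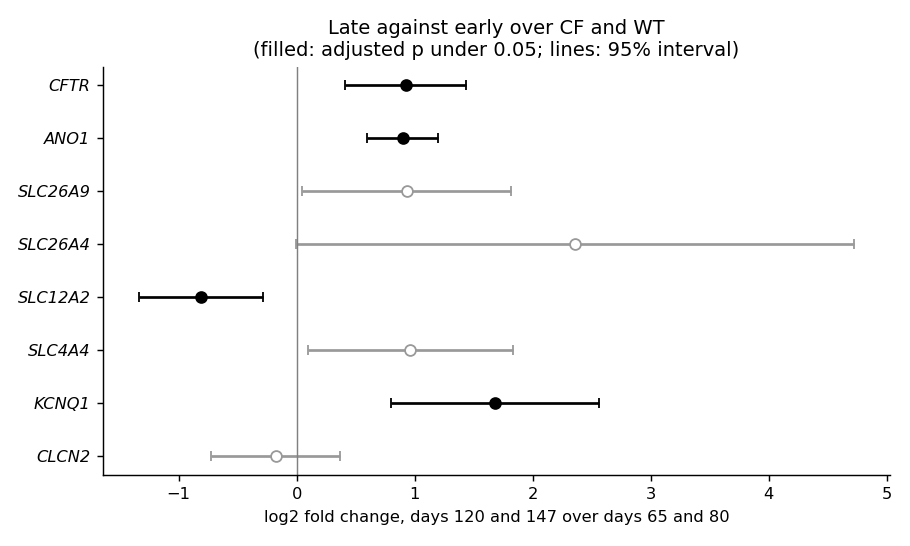
Log2 fold change of days 120 and 147 over days 65 and 80, averaged over CF and WT (x axis), with 95% intervals for the 8 genes from top to bottom; filled points passed the test and open grey points did not. CFTR, ANO1 and KCNQ1 lie above 0 at 0.92, 0.90 and 1.68, and SLC12A2 lies below 0 at -0.81.

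Cell type markers moved with age beside these genes. The summed level of 20 epithelial genes ran from 3535 to 9399 CPM in late and from 1666 to 6123 CPM in early samples. That of 11 secretory and gland genes ran from 12193 to 90346 CPM in late and from 1228 to 22513 CPM in early samples. That of 11 ionocyte genes, the rare cells rich in CFTR, ran from 268 to 464 CPM in late and from 65.7 to 158 CPM in early samples, without overlap. FOXI1 and BSND, which define ionocytes, were at or under 2.22 CPM throughout, so the sums come mostly from other genes of the list. FOXI1 ran from 0.387 to 2.19 CPM in late and from 0 to 2.22 CPM in early samples, with overlap. ASCL3, also in the list, overlapped too, at 0.133 to 4.23 CPM late and 0 to 0.684 CPM early. FOXI1 was at 0 in the 2 CF day 80 libraries, and BSND in these and in both WT libraries of days 80 and 100. The 5 genes of interstitial cells of Cajal, which also transcribe ANO1, had lower sums late. They ran from 139 to 281 CPM in late and from 387 to 1160 CPM in early samples, also without overlap. Of these 5 genes KIT did overlap, at 9.79 to 87.2 CPM late and 35.9 to 185 CPM early. The highest sum, 1160 CPM, was in CF day 80 replicate 1, the skeletal muscle library, where KIT was at 38.8 CPM. The part of these markers in the changes of the 8 genes was not tested, beyond the fit with the epithelium score.

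Over all 5 ages 17.9% of tested genes changed with age in either way, and the same 4 of the 8 genes passed, with adjusted p of 0.0355 for CFTR, 0.0036 for ANO1, 0.0461 for SLC12A2 and 0.0441 for KCNQ1 (edgeR). ANO1 passed without any single library, but not without the 4 libraries (adjusted p = 0.0529) or with the epithelium score (0.0734, edgeR). Of the 8 fits that leave out no single library, CFTR lost this call in 5, SLC12A2 in 6 and KCNQ1 in 4, the scaling by library size alone, the replicate block and the summing by identifier among them for each. SLC4A4 gained it in DESeq2 (adjusted p = 0.0243), and also when either WT day 80 replicate 2 or WT day 147 replicate 2 was left out. CFTR kept this call in 9, SLC12A2 in 5 and KCNQ1 in 3 of the 20 fits that left out 1 library. CFTR lost it without any one of both WT day 80, both WT day 100, both CF day 65, both CF day 100 and both CF day 147 libraries or CF day 80 replicate 1. SLC12A2 kept it without either library of WT at day 80 or 120 or WT day 147 replicate 1, and KCNQ1 without either WT day 80 library or WT day 120 replicate 2.

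The genotype difference was called unequal between ages for 0.0697% of tested genes and for 0 of the 8 (edgeR, 14 genes called and 1464 with an unadjusted p under 0.05). The change of late against early in CF minus that in WT passed for none of the 8 and for 0% of tested genes, with 796 at an unadjusted p under 0.05, and DESeq2 called 64. CFTR had the largest such value of the 8, 1.15 ± 0.47 on the log2 scale (unadjusted p = 0.0305, adjusted p = 0.976, edgeR), with an interval from 0.13 to 2.18. A positive value means that the late over early change was larger in CF, and this one did not pass the correction. ANO1 was at -0.08 ± 0.28, SLC26A9 at 0.18 ± 0.81, SLC12A2 at 0.36 ± 0.48, SLC4A4 at 0.71 ± 0.79, KCNQ1 at 0.27 ± 0.79 and CLCN2 at 0.42 ± 0.50 on the same scale. No other gene of the 8 had an unadjusted p under 0.05 in this comparison.

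To set levels of different genes side by side, CPM were divided by the summed exon length, giving CPM per kilobase. ANO1 came first with 7.03 ± 2.45, followed by SLC12A2 with 4.29 ± 2.10, KCNQ1 with 3.69 ± 2.61, CFTR with 2.57 ± 1.18, CLCN2 with 2.20 ± 0.86 and SLC4A4 with 1.59 ± 1.11 (mean ± SD in CPM per kilobase, n = 20). SLC26A9 had 0.139 ± 0.0873 and SLC26A4 had 0.0463 ± 0.0711 on that scale, and these 2 took the last places in every library. ANO1 ranked first in 13 libraries and second in the other 7, SLC12A2 ranked first in 6 and KCNQ1 in 1. The gaps between neighbours from SLC12A2 to SLC4A4 were smaller than the SD of either neighbour. Median ANO1 stood at the percentile 60.5 of all tested genes per kilobase and median CFTR at 42.2.

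Among CFTR, ANO1, SLC26A9 and SLC26A4, the 4 apical exit routes, ANO1 held most of the summed CPM per kilobase in every library. CFTR made up 22.3 ± 6.10% of the sum in CF and 29.3 ± 8.22% in WT, and ANO1 75.4 ± 6.15% in CF and 69.1 ± 8.25% in WT (SD, n = 10 each). SLC26A9 made up 1.89 ± 1.42% in CF and 1.24 ± 0.92% in WT, with its highest share, 5.60%, in CF day 80 replicate 1. SLC26A4 stayed at or under 0.993% in CF and 2.07% in WT. At day 65 CFTR held 24.9 and 18.9% in CF, against 47.1 and 37.0% in WT, and at day 80 it held 13.8 and 15.2% in CF, against 28.2 and 25.8% in WT. By day 147 CFTR made up 33.0 and 21.8% of the sum in CF libraries, against 22.3 and 19.1% in WT libraries. These shares divide RNA levels and say nothing of channel number or current, and a lower share of CFTR raises that of the others by construction.

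**Figure D4:**
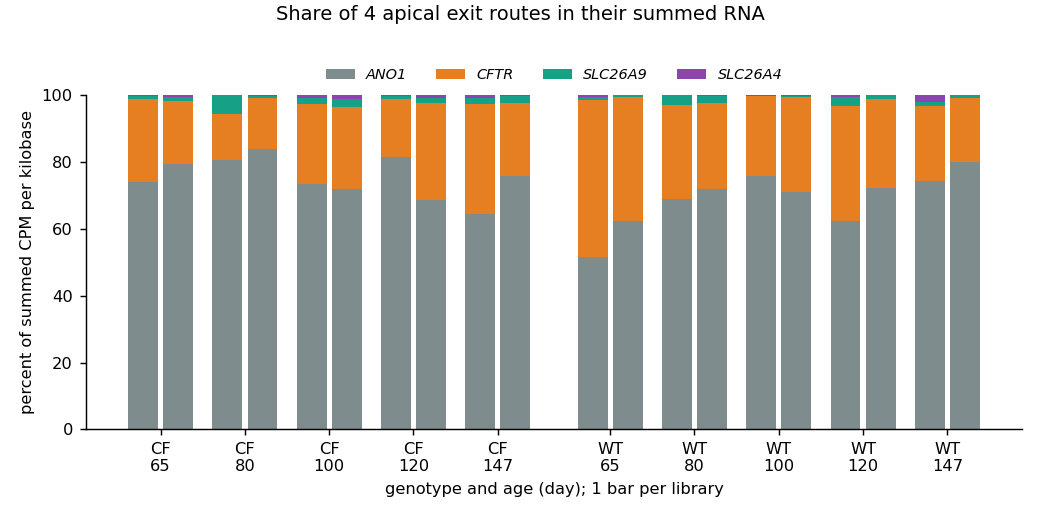
Share of ANO1, CFTR, SLC26A9 and SLC26A4 in their summed CPM per kilobase (y axis, percent), 1 bar per library, CF on the left and WT on the right, by age in days. ANO1 fills 51.6% to 84.0% of every bar, CFTR most of the rest, and the CFTR band is widest in WT at day 65, with 47.1 and 37.0%.

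The genes whose levels ran most like that of CFTR were found by Pearson correlation of log2 CPM over the 20 libraries, among 12501 genes that had a symbol and enough counts. They were C2H9orf152 (r = 0.904), ARHGEF28 (0.898), EMB (0.897), PKP2 (0.894) and CRISP3 (0.893). Among the other members, ANO1 (r = 0.67, place 588 of 12500) and KCNQ1 (0.61, place 872) ran most like CFTR, and SLC12A2 (0.04) and CLCN2 (0.003) least. ANO1 itself ran most like SFTPD (0.931), GRAMD1C (0.927) and ACSM3 (0.919), and KCNQ1 most like ELL2 (0.919), TLR4 (0.908) and SCNN1A (0.902), a subunit of the epithelial sodium channel. SLC12A2 ran most like ARPP19, MAPK1IP1L and KANK4, SLC4A4 most like TGOLN2, C1QTNF1 and ATP2A3, and CLCN2 most like LRP1, LPGAT1 and IGF1, at r between 0.882 and 0.939. These values describe libraries that differ in age, tissue makeup and depth, which may move many genes together. The order rests in part on the 4 libraries that held other tissue. Over the 16 others the r with CFTR was 0.62 for KCNQ1, 0.50 for SLC4A4, 0.45 for ANO1, 0.38 for SLC12A2 and 0.18 for CLCN2. Over these 16 the 5 genes named as most like CFTR took places 14, 47, 61, 73 and 13, with r between 0.805 and 0.862.

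Other genes of the pathway were taken from 6 lists, of which 31 other anion channels, 13 other anion exchangers, 23 genes of basolateral loading, 16 epithelial potassium channels, 36 partners and regulators of CFTR and 7 transcription regulators were tested. None of them passed in CF against WT, averaged or at any age. Late against early, 11 of the 31 other anion channels passed, 6 higher and 5 lower, beside the 24.2% of all genes. CLCA1, a secreted protein of goblet cells that modulates calcium-activated chloride currents, averaged 392 ± 260 CPM in late and 12.3 ± 14.9 CPM in early samples (SD, n = 8 each), and its log2 fold change was 5.17 ± 0.61 (SE; adjusted p = 7.53e-05, edgeR). It was also the gene with the highest mean per kilobase of its list. CLCA2, CLCA4, ANO4 and BSND, a subunit of ClC-K channels, were higher late too. CLCA4, ANO4 and BSND were scarce, averaging 0.435, 0.694 and 0.383 CPM late, and 0.0368, 0.289 and 0.0753 CPM early. ANO9, at a mean of 41.3 CPM, was also higher late, by 1.26 ± 0.21 (log2 fold change ± SE, adjusted p = 0.00102, edgeR). CLCN5, an endosomal chloride and proton exchanger, was lower (-1.72 ± 0.20), as were ANO5, TTYH2, LRRC8C and TMEM206. ANO5 was scarce too, at 0.193 CPM late and 0.761 CPM early. Median log2 fold changes were close to 0, at -0.01 for this list and -0.02 for all tested genes.

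Of all tested genes 24.2% passed in this comparison, 11.5% higher and 12.7% lower late. Of the 13 other exchangers 4 passed, all lower late, with a list median of -0.12: SLC4A1, the exchanger of red cells, SLC4A3, SLC26A10 and SLC26A6. SLC4A1 averaged 0.406 ± 0.530 CPM in late and 23.0 ± 56.8 CPM in early samples (SD, n = 8 each). Its early SD thus exceeded its early mean. The early samples include the library with liver markers, whose part in this was not tested. Of the 23 genes of basolateral loading 4 passed, all higher late, while the list median was -0.16: the carbonic anhydrase CA4, SLC4A8, which averaged 32.3 ± 11.0 CPM in late and 9.97 ± 3.47 CPM in early samples (SD, n = 8 each), the sodium-proton exchanger SLC9A2 and STK39, a kinase that activates SLC12A2. Of the 16 potassium channel genes 7 passed, with a list median of 0.16. KCNE1, KCNE4, KCNJ16, KCNK6 and KCNN4, the calcium-activated channel of epithelia, were higher late, KCNN4 by 2.72 ± 0.49 (log2 fold change ± SE), and KCNA1 and KCNMB4 were lower. KCNE3, a subunit that holds KCNQ1 open, had a log2 fold change of 0.07 ± 0.24 (adjusted p = 0.886, edgeR).

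Of the 36 partners and regulators of CFTR, 14 passed, 11 higher and 3 lower late, beside the 11.5% and 12.7% of all tested genes, with a list median of 0.04. The receptor VIPR1 (1.66 ± 0.43), which raises cyclic AMP, the scaffold SLC9A3R1 (1.11 ± 0.20), the motor MYO5B (1.06 ± 0.19) and the chaperone DNAJB1 (1.06 ± 0.24) were higher, and DAB2, STX1A and PRKACB were lower (log2 fold change ± SE). Of the 7 transcription regulators 2 passed, both higher late, CEBPB among them, with a list median of 0.46 and beside the same shares. The epithelial factors EHF and FOXA1, in the same list, had log2 fold changes of 0.07 ± 0.27 and 0.75 ± 0.26 and did not pass (adjusted p = 0.9 and 0.0552, edgeR). The highest mean level per kilobase in each of the other lists belonged to SLC26A2, WNK1, KCNK1, DNAJA1 and KLF5.

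Replicates of 3 groups differed in the same way for all 8 genes. In WT at day 120 and in WT at day 147 every one of the 8 was lower in replicate 2, and in CF at day 120 every one was lower in replicate 1, while 50.7%, 52.8% and 49.4% of all tested genes were lower in replicate 2. The length slope, a property of the library, differed in these pairs too. For it, the log2 CPM of each gene, less its mean over the 20 libraries, was regressed on log2 gene length. A slope below 0 thus means that longer genes stood lower, relative to their own means, than shorter ones. This slope is not that of the levels themselves. It was -0.145 in CF day 120 replicate 1 against 0.106 in replicate 2, 0.0809 in WT day 120 replicate 1 against -0.174 in replicate 2, and 0.102 in WT day 147 replicate 1 against -0.243 in replicate 2. In the WT day 80 pair, with a gap of similar size and the thyroid library, 5 of 8 genes were higher in the library of the higher slope. The lengths of 7 of the 8 genes were above the median of tested genes, 2837 bases, and that of SLC4A4, 14295 bases, exceeded 98.2% of them, while KCNQ1, 1827 bases, is below it.

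**Figure D5:**
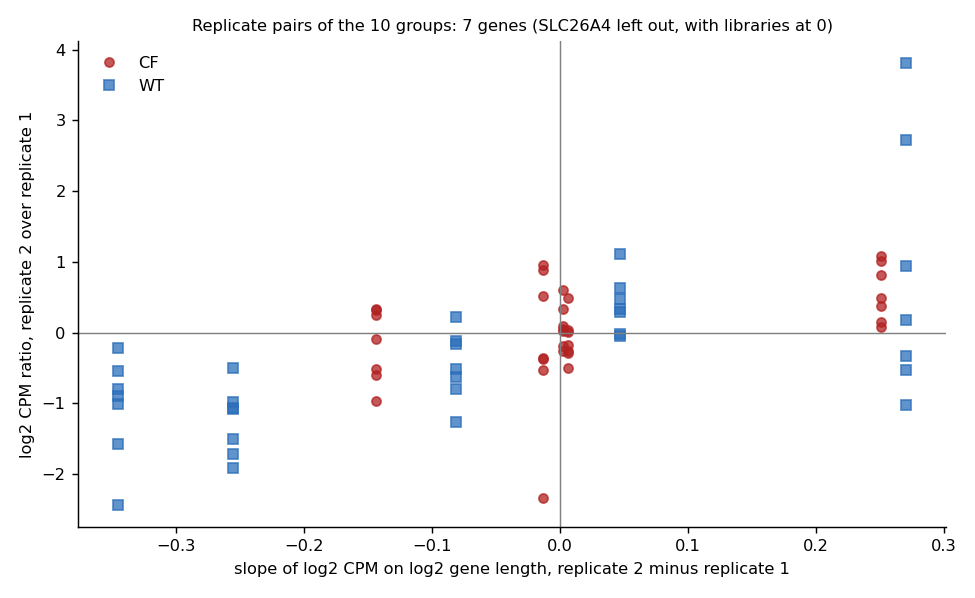
Log2 ratio of CPM in replicate 2 over replicate 1 for 7 genes (y axis) against the difference of the length slopes of the 2 libraries (x axis), with 1 column of points per group (CF circles, WT squares). In the 2 leftmost columns, WT at days 147 and 120, all points lie under 0, and in CF at day 120 all lie above 0.

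With the length slope as a covariate, CFTR was at -0.55 in CF against WT (adjusted p = 0.121, edgeR) and stayed short of the threshold, as did the other 7. Late against early, 6 of the 8 genes passed in that fit, the 4 above and SLC4A4 (1.46, adjusted p = 0.000289) and SLC26A4 (3.09, adjusted p = 0.00632). This fit called 8385 genes of the whole table late against early, where the one without the slope called 4865. For any change with age it called 7498 genes. SLC4A4 (adjusted p = 0.000785) and SLC26A4 (adjusted p = 0.0264) gained that call by edgeR, and SLC12A2 lost it. What the slope stands for was not tested.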

How the data were processed

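Total RNA of frozen tracheal tissue was sequenced. Per the submitters' processing notes, STAR 2.6 and featureCounts 1.6.3 were used, and the values the authors deposited are raw counts per gene, in 1 table per genotype that also holds positions and exon lengths. Genome build and strand setting: not given in the sources used here. Of counts from 1 to 20, 70.7% to 85.3% were even in each library, against 50.1% to 58.3% of those of at least 1000, so 1 molecule may give more than 1 count.

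Samples were grouped by their titles. Counts were tested in edgeR 4.0.16 (R 4.3.3) after filterByExpr over the 10 groups and TMM scaling, with a robust quasi-likelihood fit of 1 coefficient per group. P-values were adjusted by Benjamini-Hochberg over 20097 genes, with a threshold of 0.05, and the SE is the log2 fold change over the root of F. The step was tested on simulated data. The alternatives were DESeq2 1.42.0, other scaling, filters and covariates, and each of the 20 libraries left out, 28 fits in all.

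The members and the gene lists were chosen with earlier results of these data known. All 8 members are described. The named genes are the most correlated genes (on log2 CPM, prior count 2, mean at least 1, 5 for CFTR and 3 for each other member), and the list members that passed, at most 5 per direction, with the highest per kilobase. Some genes that qualify are left out of the text. ANO9, KCNE3, EHF and FOXA1 were named after their values were seen. Replicate numbers did not pair the samples, since the correlations of same-numbered deviations were 0.097, -0.132, -0.049, -0.527 and 0.254 over the ages. No genome was used, and gene sequences were not analysed here.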

Additional observations from a re-analysis of the deposited data

Results flagged for a closer look

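SLC26A4 had 1 library far from the other WT libraries. WT day 147 replicate 1 held 1.08 CPM (58 counts), and the next WT library held 0.231 CPM. The gap between them was 0.786 of the range of the 10 WT libraries. The limit it passed is one that about 1 in 20 groups of that size pass by chance, if their values are normally distributed around 1 mean. The WT libraries differ in age, and several had no SLC26A4 count, so that rate cannot be assumed here. It also applies to each group screened, so screening many groups makes a flag by chance more likely. No conclusion is drawn from the flag beyond the gap itself.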

How the results depend on the processing

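For CF against WT averaged over the ages, no member passed in any fit, and the log2 fold change of CFTR ran from -0.61 to -0.35. Directions of small differences turned. With the 4 libraries of other tissue left out, which leaves 1 library in each group of days 65 and 80 that is assumed to vary like the rest, KCNQ1 was at 0.43 and SLC4A4 at 0.25 over the mean of the ages. With the epithelium score, CLCN2 was at 0.23 late against early. With 1 library left out, CF against WT ran from -0.064 to 0.12 for ANO1, from -0.40 to 0.37 for KCNQ1, from -0.16 to 0.15 for SLC12A2, from -0.32 to 1.99 for SLC26A4 and from -0.25 to 0.31 for SLC4A4. The causes were not tested.

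Counts of genes called in the whole table depended on the fit. CF against WT called none of the 8 members, save SLC26A9 and CLCN2 at day 100 by DESeq2. Late against early called 4 of the 8, but 1 to 6 over the further fits, and any change with age 4, but 0 to 5. Averaged over the ages, CF against WT called 154 genes, but 2 with samples of a shared identifier summed, 49 without the 4 libraries, 745 with the length slope and 801 by DESeq2. At day 65 it called 2, but 1 by library size alone and with the replicate block, 0 with shared identifiers summed and without the 4 libraries, 7 with the length slope and 165 by DESeq2. At day 80 it called 0, but 20 with the slope, 1 with the epithelium score and 684 by DESeq2. At day 100 it called 294 (282 higher, 12 lower), but 0 with shared identifiers summed, 716 with the slope and 1186 by DESeq2 (975 higher, 211 lower). At day 120 DESeq2 called 17. At day 147 the count was 19, but 12 by library size alone, 6 with no filter, 3 with the replicate block, 1 with shared identifiers summed, 7 without the 4 libraries, 294 with the slope, 35 with the epithelium score and 408 by DESeq2. Late against early called 4865, but 2781 without the 4 libraries, 8385 with the slope and 2172 with the epithelium score. Any change with age called 3601, but 1569 with shared identifiers summed, 1553 without the 4 libraries, 7498 with the slope, 1916 with the epithelium score and 6943 by DESeq2. The unequal genotype difference called 14, but 9 by library size alone, 1 with the replicate block, 0 with shared identifiers summed, 0 without the 4 libraries, 180 with the slope, 1 with the epithelium score and 813 by DESeq2. The difference of developments called 0, and DESeq2 called 64.

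With 1 library left out, the counts ran from 51 to 319 over the mean of the ages, 0 to 46 at day 65, 0 to 352 at day 80, 0 to 482 at day 100, 1 to 56 at day 147, 2315 to 4483 for any change with age, 0 to 216 for the unequal difference and 0 to 6 for the difference of developments. Scaling by library size alone moved the median of all genes at day 100 to 0.32, against 0.12. Shallow counts limit SLC26A4 and SLC26A9 most.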
